A study of Mus musculus with 18 samples.

Results

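The genes described here are 32 genes of glycolysis and of the response to low oxygen, found by their symbols in the deposited gene table. The list of symbols was drawn up with earlier results of these data known. All 32 were among the 45777 genes of the table, and 31 passed the filter on low counts, out of 14650 genes tested. Messenger RNA was sequenced from RAW264.7 cells, a macrophage-like mouse line labelled as wild type, after 6 h in serum-free medium. There were 6 groups of 3 libraries. SB24011 was given alone at 20 uM, and cGAMP, the second messenger that switches on STING, alone at 20 uM. To this dose of cGAMP was added SB24011 at 10 uM, SB24011 at 20 uM, or the compound 7a at 20 uM, and the last group had only the vehicle DMSO. By the series title SB24011 blocks the binding of STING to TRIM29, and the design text names 7a its negative analog. All groups come from 1 cell line, and the labels do not say whether the 3 libraries of a group were separate cultures, so p-values measure only the spread between these libraries, which may be technical.

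Glycolysis takes glucose in through transporters such as GLUT1, traps it by phosphorylation, splits it and turns it into pyruvate, most of which activated macrophages reduce to lactate and export. HIF-1, made of HIF-1 alpha and its partner ARNT, switches on most of these enzymes in low oxygen. Under normal oxygen, prolyl hydroxylases mark HIF-1 alpha for the ubiquitin ligase that holds VHL, so that its amount is set mainly by protein decay and not by its mRNA. In macrophages the same programme is known to be raised by inflammatory stimuli.

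Libraries held 45165780 to 65810517 counts, and the 32 genes took 1.42% to 1.94% of them. The 9 macrophage markers examined all had reads, with a summed level of 4429 to 6601 CPM (CPM, counts scaled to a common library total after TMM adjustment, are the level used throughout). Of the markers of other cell types, 4 of 5 for T cells, 2 of 4 for B cells, 4 of 5 for fibroblasts and 4 of 4 for epithelium had no read in any library. The 4 endothelial markers summed to 2.32 to 5.30 CPM in the 4 groups with cGAMP and to 0.345 to 0.960 CPM with SB24011 alone and DMSO, and their part in the results was not tested. Cxcl10, an interferon-induced chemokine gene, differed by 6.58 on the log2 scale between cGAMP and DMSO, and Trib3, a stress-induced pseudokinase gene, by 3.71 between SB24011 alone and DMSO.

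Per length, the 9 genes with the highest levels all encode enzymes from glucose phosphate isomerase to lactate dehydrogenase. FPKM are the authors' levels, scaled for length and library depth, and for Pfkp they did not follow the counts, as given below. In FPKM, Pkm, which encodes pyruvate kinase, averaged 1575 over the 18 libraries, the highest of the 32. Ldha, lactate dehydrogenase A, followed with 921, Eno1, enolase, with 894 and Aldoa, aldolase A, with 890. Pgk1 (phosphoglycerate kinase) averaged 552, Gapdh 509, Tpi1 (triose phosphate isomerase) 388, Pgam1 (phosphoglycerate mutase) 376 and Gpi1 (glucose phosphate isomerase) 193. Entry and control steps were lower, with 66.2 FPKM for Slc2a1 (GLUT1) and 56.1 for Pfkp (the platelet form of phosphofructokinase). The hexokinase genes Hk3, Hk1 and Hk2 averaged 43.6, 40.6 and 27.4, and Pfkl, another phosphofructokinase gene, 34.7. Hif1a averaged 53.7. Egln3, a prolyl hydroxylase, was at the floor, with 0 to 43 reads a library, and no fold change is given for it. P4ha2, a subunit of collagen prolyl hydroxylase, had 17 reads in SB24011 replicate 3, 10 in replicate 3 of cGAMP with 20 uM SB24011, and none in the other 16 libraries. It was the 1 gene of the 32 that was not tested.

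Some of the counts are uncertain because other genes lie on the same ground. Of the 32 genes, 14 overlap another annotated gene, 4 of them one with more than 5% of their own counts. Over all libraries, Ufsp2 held 3464% of the counts of Ankrd37, Senp1 538% of those of Pfkm, Csnk1d 92.2% of those of Slc16a3 and Pitrm1 35.7% of those of Pfkp. Whether counting used the strand is not given in the sources used here. Gapdh, Aldoa, Eno1, Pgk1, Ldha and Pgam1 also have processed pseudogene copies in the mouse genome, between which reads can be split.

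The hypoxia response element, to which HIF-1 binds, has the core ACGTG or GCGTG. Both were searched for on both strands in the 250 bases before each RefSeq start of 31 of the 32 genes (GRCm38.p6). No window was at hand for Bnip3l, and a gene can have several starts. ACGTG was found for 20 of 31 genes, and in 16.6% of all 32851 windows of the same length. GCGTG was found for 20 of 31 genes and in 28.2% of all windows, and one or the other for 28 of 31 genes and in 38.6% of all windows. Counted by window, as for all windows, 23 of the 45 windows of these genes held ACGTG and 24 held GCGTG. One or the other core was in 36 of the 45 windows. TGATGNAA, the amino acid response element that ATF4 binds, was found in none of them and in 3.45% of all windows. These are matches of letters, not sites shown to be bound, and the windows compared were not matched for base composition. The windows of 5 genes are shown as examples, each with at least 1 core, from genes that changed in the results that follow. They belong to Ldha and Slc16a1 (MCT1, a lactate transporter), which were lower with SB24011, to Hif1a and Hk3 (hexokinase 3), which were higher with it, and to P4ha1, another subunit of collagen prolyl hydroxylase, which was higher with cGAMP. They are written 5′ to 3′ on the strand of the gene, with the cores in capitals on either strand. CACGTG reads ACGTG on both strands and counts as 2 matches. Ldha has 2 windows, and the one shown, chr7:46845554-46845803 on the plus strand, holds 5 matches of ACGTG. Its other window, not shown, holds 0 of ACGTG and 1 of GCGTG. The Slc16a1 window, chr3:104638414-104638663 on the plus strand, holds 2 of ACGTG and 2 of GCGTG. The Hif1a window, chr12:73907617-73907866 on the plus strand, holds 3 of ACGTG. The Hk3 window, chr13:55021386-55021635 on the minus strand, holds 1 of ACGTG, and the P4ha1 window, chr10:59323046-59323295 on the plus strand, holds 1 of ACGTG and 2 of GCGTG. Vegfa and Hk1, which also changed with SB24011, are not shown. The first window of each holds 0 of both cores. Window 2 holds 1 of ACGTG and 1 of GCGTG for Vegfa, and 0 and 3 for Hk1. The windows of Tpi1, Gpi1 and Vhl hold 0 of both.
Ldha: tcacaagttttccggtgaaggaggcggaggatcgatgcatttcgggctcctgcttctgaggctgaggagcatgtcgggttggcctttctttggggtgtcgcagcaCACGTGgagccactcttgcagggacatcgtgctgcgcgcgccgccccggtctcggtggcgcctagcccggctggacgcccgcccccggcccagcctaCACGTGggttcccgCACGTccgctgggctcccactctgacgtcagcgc
Slc16a1: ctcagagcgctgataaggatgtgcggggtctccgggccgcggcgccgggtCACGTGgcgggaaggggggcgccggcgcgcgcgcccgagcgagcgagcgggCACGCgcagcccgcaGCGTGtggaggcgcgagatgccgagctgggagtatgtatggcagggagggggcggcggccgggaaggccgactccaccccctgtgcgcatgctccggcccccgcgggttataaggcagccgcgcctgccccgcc
Hif1a: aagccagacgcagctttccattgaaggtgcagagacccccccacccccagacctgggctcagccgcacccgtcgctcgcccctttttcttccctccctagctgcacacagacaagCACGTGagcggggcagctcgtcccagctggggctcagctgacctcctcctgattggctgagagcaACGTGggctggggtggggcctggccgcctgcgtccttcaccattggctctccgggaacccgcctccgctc
Hk3: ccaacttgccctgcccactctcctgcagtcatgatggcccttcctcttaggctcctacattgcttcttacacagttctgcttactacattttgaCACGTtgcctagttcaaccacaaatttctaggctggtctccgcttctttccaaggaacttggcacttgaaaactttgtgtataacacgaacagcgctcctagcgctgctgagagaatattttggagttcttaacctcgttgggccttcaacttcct
P4ha1: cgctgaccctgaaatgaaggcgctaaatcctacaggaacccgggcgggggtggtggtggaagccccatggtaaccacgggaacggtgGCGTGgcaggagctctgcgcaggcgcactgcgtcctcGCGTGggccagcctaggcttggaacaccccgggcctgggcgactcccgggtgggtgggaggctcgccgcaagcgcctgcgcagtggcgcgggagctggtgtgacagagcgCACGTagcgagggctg

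The comparison of SB24011 alone with DMSO asks what the compound changed without a STING agonist. Genes at several steps of glycolysis fell, among them Hk1, Pgam1, Ldha and the lactate transporter genes, while Hif1a, Vegfa, Hk3 and Pfkp rose. Pfkm, Aldoa, Aldoc, Gapdh, Eno1, Pfkfb3 and Pdk1 were not called. Of 31 genes tested 13 fell and 4 rose (adjusted p under 0.05, adjusted over all genes), beside 24.3% and 20.4% of all genes tested and 44.6% in either direction. The median log2 fold change was -0.17 for the 31 genes and -0.01 for all genes. In bulk RNA, fewer cells with a transcript and less of it per cell cannot be told apart. The count of genes that fell was 7 without SB24011 replicate 2, 7 without DMSO replicate 1 and 8 without DMSO replicate 3. It was 5, 7 and 8 without replicate 1, 2 or 3 of every group, 7 with libraries scaled by their totals alone and 8 with the quantile-normalized table.

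Ldha makes the enzyme that turns pyruvate into lactate and recycles NAD. It lies on chromosome 7, 46842274 to 46855627 (GRCm38), a span that holds the window shown above. It had 1357, 1418 and 1552 CPM in the SB24011 libraries, against 2162, 2151 and 2233 CPM in the DMSO libraries. Every SB24011 library lay below every DMSO library. The log2 fold change was -0.60 ± 0.08 (SE; adjusted p = 1.48e-05), a fall to 0.661 of the DMSO level. The lactate exporters fell with it. Slc16a1 (chromosome 3, 104638664 to 104658462) had 204, 248 and 230.1 CPM with SB24011 and 354, 386 and 389 CPM with DMSO, a change of -0.73 ± 0.15 (adjusted p = 0.000889). Slc16a3, which encodes MCT4, the exporter typical of highly glycolytic cells, averaged 137 ± 21.6 CPM with SB24011 and 230 ± 14.3 CPM with DMSO (SD, n = 3 each). Its change was -0.75 ± 0.21 (adjusted p = 0.00852), but the adjusted p was 0.0584 without replicate 1 of every group and 0.0595 without replicate 2, and it overlaps Csnk1d. The glucose importer gene Slc2a1 did not pass the test, with 217 ± 13 CPM with SB24011 and 192 ± 16.8 CPM with DMSO (0.18, 95% interval -0.03 to 0.39, adjusted p = 0.156). It was called higher with libraries scaled by their totals alone (0.25, 0.0368), with the quantile-normalized table (0.29, 0.0149) and with only the 2 groups in the fit (0.20, 0.0384).

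The 3 hexokinases, which phosphorylate glucose at entry, split. Hk1, the form of most tissues, fell, with 141, 134 and 143 CPM in the SB24011 libraries and 206, 191 and 195 CPM in the DMSO libraries (-0.50 ± 0.07, adjusted p = 2.24e-05). Hk3, which is typical of myeloid cells, rose, with 144, 144 and 129 CPM with SB24011 and 91.4, 83.8 and 74.2 CPM with DMSO (0.74 ± 0.13, adjusted p = 0.000174). Neither gene had overlapping groups. Hk2, the inducible form, was called lower, at 144 ± 7.07 CPM with SB24011 and 165 ± 6.26 CPM with DMSO. Among the other upper steps, Pfkl, the liver form of phosphofructokinase, averaged 138 ± 19.8 CPM with SB24011 and 189 ± 12.7 CPM with DMSO (-0.45 ± 0.15, adjusted p = 0.0189). Tpi1 averaged 692 ± 74.0 CPM with SB24011 and 880 ± 61.0 CPM with DMSO (-0.35 ± 0.11, adjusted p = 0.0185). In the fit with the library sets as a block both were called with adjusted p = 2.56e-05 and 3.85e-05. In the unpaired fit both calls were lost when single libraries were left out. Without SB24011 replicate 2 the adjusted p was 0.0907 for Pfkl and 0.0953 for Tpi1, and without DMSO replicate 3 it was 0.0607 and 0.0752. Pfkl also missed without DMSO replicate 1 (0.0533). With libraries scaled by their totals alone, both missed too (0.0656 and 0.0922).

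Lower in the chain, Pgam1, which moves the phosphate group before enolase, fell most firmly. It had 648, 658 and 678 CPM in the SB24011 libraries, against 988, 1060 and 1052 CPM in the DMSO libraries, a change of -0.64 ± 0.08 (adjusted p = 2.95e-06). Its highest SB24011 library lay well below its lowest DMSO library. Pkm averaged 4031 ± 180.3 CPM with SB24011 and 4964 ± 39.8 CPM with DMSO (-0.30 ± 0.06, adjusted p = 0.000423). In the quantile-normalized table of the authors its difference was close to 0 and not called (adjusted p = 0.977). The remaining calls were small: Pfkp was higher, and Gpi1, Pgk1 and Pfkfb4 (one of the enzymes that make and break the phosphofructokinase activator fructose 2,6-bisphosphate) lower, all within 0.23 on the log2 scale. In FPKM, Pfkp averaged 44.2 ± 3.25 with SB24011 and 44.5 ± 6.15 with DMSO. Aldoa, Aldoc, Gapdh and Eno1 were not called. With the library sets as a block, Aldoa (-0.11, adjusted p = 0.0337), Aldoc (-0.22, 0.013) and Eno1 (-0.18, 0.00576) were called lower as well.

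On the hypoxia side, 2 genes rose. Vegfa, the vascular growth factor gene and a classical HIF target (chromosome 17, 46016993 to 46032377), had 57.5, 49.5 and 53.7 CPM in the SB24011 libraries, against 32.4, 31.4 and 30.7 CPM in the DMSO libraries. The libraries did not overlap, and the log2 fold change was 0.77 ± 0.10 (adjusted p = 1.3e-05), a level 1.70 times that in DMSO. Hif1a itself (chromosome 12, 73901324 to 73947554) had 310.1, 310.0 and 317 CPM with SB24011 and 239, 255 and 252 CPM with DMSO (0.33 ± 0.05, adjusted p = 4.3e-05). The other tested genes grouped here as hypoxia targets, a group without the glycolytic genes that HIF-1 also drives, did not rise. P4ha1, Bnip3 and Bnip3l (mitophagy receptors) were not called. Ankrd37, whose mRNA is strongly HIF-dependent, was called lower, with 2.01, 0.777 and 1.77 CPM with SB24011 and 5.08, 3.08 and 4.43 CPM with DMSO. Its change of -1.46 ± 0.47 (adjusted p = 0.0195) rests on few reads that overlap Ufsp2, and it missed without SB24011 replicate 2 (0.0793), without DMSO replicate 1 (0.0635) and without replicate 1 or 3 of every group (0.111 and 0.0939). Its adjusted p was 1.32e-05 with the library sets as a block. Egln1 (PHD2, the main oxygen sensor) and Vhl were not called.

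**Figure D1:**
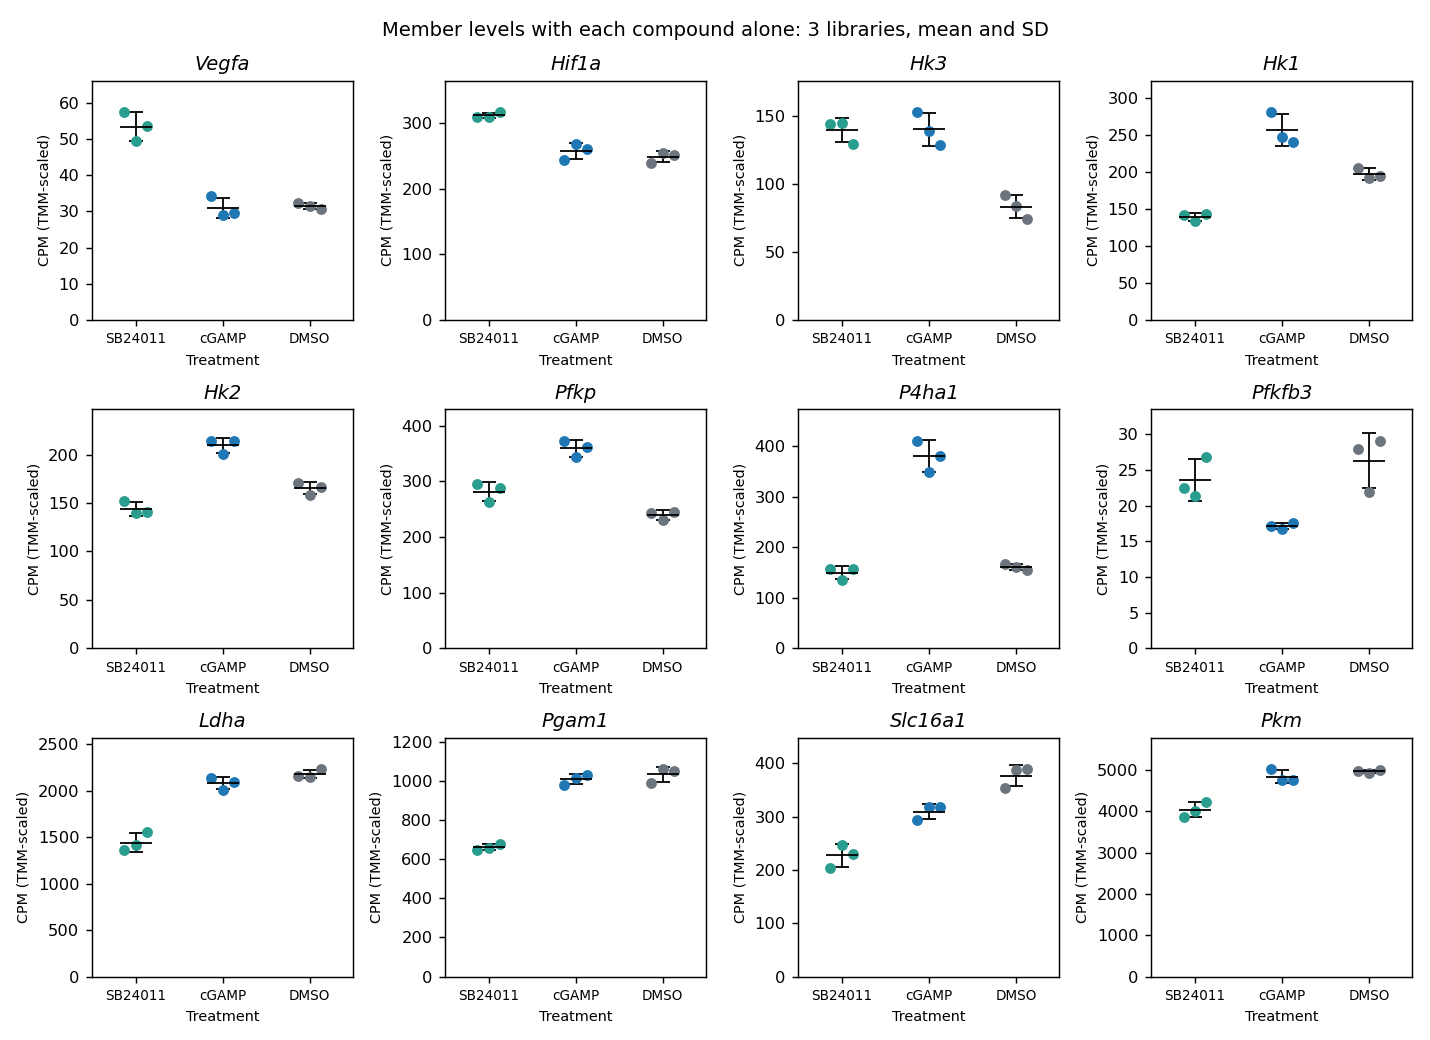
TMM-scaled CPM (vertical axes, each from 0) of 12 genes with SB24011, cGAMP or DMSO (horizontal axes). Points are the 3 libraries of a group, the long line is their mean and the bars are 1 SD. Vegfa and Hif1a stand apart with SB24011 only, P4ha1 with cGAMP only (380 ± 31.6 CPM against 161 ± 5.14 CPM in DMSO), and Hk1 is low with SB24011 and high with cGAMP.

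The comparison of cGAMP with DMSO gives the response of the same genes to the STING agonist. The hexokinases, Pfkp and P4ha1 rose, the 2 fructose 2,6-bisphosphate enzymes fell, and the lower chain was not called. Of 31 genes 6 rose and 5 fell, beside 15.6% and 19.8% of all genes tested and 35.4% in either direction. The median was -0.08 for the 31 genes and -0.06 for all genes. The count that fell was 12 with libraries scaled by their totals alone, 12 with limma on log2(FPKM + 1) and 8 with the quantile-normalized table. It was 3 without DMSO replicate 1 and 2 without replicate 2 of every group. Scaling by library totals alone moved the median of all genes from -0.06 to -0.19, so small falls in this comparison depend on the scaling. The share of higher among all called genes was 44.1%, and 24.9% with that scaling, 24.0% with limma on log2(FPKM + 1) and 33.2% with the quantile-normalized table.

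P4ha1 had 411, 348 and 381 CPM in the cGAMP libraries, against 166, 161 and 156 CPM in the DMSO libraries. No library of one group came near the other, and the log2 fold change was 1.24 ± 0.09 (adjusted p = 7.86e-09), a level 2.36 times that in DMSO. P4ha1 makes the catalytic subunit of collagen prolyl 4-hydroxylase. Vegfa (31.0 ± 2.87 CPM with cGAMP and 31.5 ± 0.836 CPM with DMSO; -0.02, 95% interval -0.24 to 0.20, adjusted p = 0.905) was not called. Hif1a was not called either, at 258 ± 12.2 CPM with cGAMP and 249 ± 8.44 CPM with DMSO (0.05, -0.05 to 0.16, adjusted p = 0.467). The same held for Ldha, at 2081 ± 63.8 CPM with cGAMP and 2182 ± 44.6 CPM with DMSO (-0.07, -0.24 to 0.10, adjusted p = 0.573), and for Slc2a1 (0.19, -0.02 to 0.40, adjusted p = 0.153).

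At the entry of the pathway all 3 hexokinase genes rose. Hk3 had 152.5, 139 and 129 CPM with cGAMP and 91.4, 83.8 and 74.2 CPM with DMSO (0.75 ± 0.13, adjusted p = 0.000215). Hk1 had 281, 247 and 241 CPM with cGAMP and 206, 191 and 195 CPM with DMSO (0.38 ± 0.07, adjusted p = 0.000487), and Hk2 averaged 209.5 ± 8.06 CPM with cGAMP and 165 ± 6.26 CPM with DMSO (0.34 ± 0.06, adjusted p = 0.000492). In all 3 genes every cGAMP library lay above every DMSO library. Pfkp, which commits sugar to the pathway, had 373, 344 and 362 CPM with cGAMP and 243, 229.6 and 245 CPM with DMSO (0.59 ± 0.07, adjusted p = 2.95e-06). Pfkfb3, the inducible maker of fructose 2,6-bisphosphate, fell, with 17.1, 16.7 and 17.5 CPM with cGAMP and 28.0, 21.9 and 29.1 CPM with DMSO (-0.62 ± 0.13, adjusted p = 0.00145). Pfkfb4 fell as well, at 18.3 ± 0.739 CPM with cGAMP and 24.0 ± 1.33 CPM with DMSO (-0.39 ± 0.07, adjusted p = 0.000255). These 7 calls, P4ha1 included, held under every alternative tried.

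The other 4 calls were less firm. Egln1 averaged 22.5 ± 0.497 CPM with cGAMP and 31.3 ± 0.826 CPM with DMSO, with no overlap (-0.48 ± 0.12, adjusted p = 0.0043, but 0.0645 without replicate 2 of every group). Pdk1, the kinase that shuts pyruvate dehydrogenase, averaged 57.8 ± 5.74 CPM with cGAMP and 80.9 ± 5.96 CPM with DMSO (-0.48 ± 0.14, adjusted p = 0.0157), and missed without cGAMP replicate 2 (0.0719) or DMSO replicate 1 (0.0621). Pfkm, the muscle phosphofructokinase, which overlaps Senp1, averaged 11.8 ± 1.31 CPM with cGAMP and 16.1 ± 1.91 CPM with DMSO (-0.46 ± 0.12, adjusted p = 0.0083, but 0.0545 without DMSO replicate 1). Vhl was higher by 0.20 ± 0.07 (adjusted p = 0.031) with overlapping libraries. It missed without cGAMP replicate 1 (0.177), DMSO replicate 2 (0.151) or DMSO replicate 3 (0.0858), and with libraries scaled by their totals alone (0.499). With the library sets as a block 11 genes fell instead of 5. The added genes were Slc16a1 (-0.28, adjusted p = 0.00861), Slc16a3 (-0.45, 0.0203), Gpi1 (-0.12, 0.00549), Aldoc (-0.34, 0.000659), Bnip3l (-0.23, 0.00471) and Ankrd37 (-0.69, 0.0133).

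The 2 single treatments share the DMSO libraries, so their values are set side by side only. Hk1 was higher with cGAMP (0.38) and lower with SB24011 (-0.50), and Hk2 likewise (0.34 and -0.20). Hk3 and Pfkp were higher with cGAMP (0.75 and 0.59) and with SB24011 (0.74 and 0.23). P4ha1 and Pfkfb3 were called with cGAMP, while Ldha, Pgam1, Slc16a1, Hif1a and Vegfa were called with SB24011.

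Adding SB24011 to cGAMP asks whether the compound acts the same way in cells with active STING. With 20 uM SB24011 on cGAMP, 10 of 31 genes fell and 4 rose against cGAMP alone, beside 20.6% and 21.7% of all genes tested and 42.3% in either direction. The median was -0.09, against 0.02 for all genes. The count that fell was 5 without cGAMP replicate 1, 6 without cGAMP replicate 3, 6 without replicate 1 of the SB24011 group and 4 without replicate 1 of every group. This comparison has no library in common with that of SB24011 alone. Of the 13 genes that fell with SB24011 alone 9 fell here too (69.2%), which is 90.0% of the 10 that fell here. Over all genes tested these shares were 73.1% and 85.9%, so the overlap was near the background. The 4 genes that rose, Vegfa, Hif1a, Hk3 and Pfkp, were the same as with SB24011 alone, and over all genes the shares were 78.3% and 73.6%. For Pfkp, which overlaps Pitrm1, the rise was seen in counts and not in the FPKM values for SB24011 alone.

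Vegfa had 34.3, 29.0 and 29.7 CPM with cGAMP alone, 65.8, 53.3 and 55.2 CPM with 10 uM SB24011 added, and 60.7, 52.3 and 57.0 CPM with 20 uM. Both doses lay clear of cGAMP alone and within reach of each other. The change against cGAMP was 0.90 ± 0.10 at 10 uM (adjusted p = 3.83e-06) and 0.87 ± 0.10 at 20 uM (adjusted p = 4.66e-06). Hif1a averaged 258 ± 12.2 CPM with cGAMP alone, 321 ± 5.14 CPM with 10 uM and 317 ± 18 CPM with 20 uM. Its change was 0.31 ± 0.05 (adjusted p = 8.88e-05) and 0.29 ± 0.05 (adjusted p = 0.000149) at the lower and the higher dose. Hk3 had 152.5, 139 and 129 CPM with cGAMP, 277, 246 and 195 CPM with 10 uM, and 292, 234 and 207 CPM with 20 uM. Its change was 0.77 ± 0.13 (adjusted p = 0.000153) and 0.80 ± 0.13 (adjusted p = 0.0001). Hk3 thus reached its highest levels where both compounds were present.

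Ldha had 2134, 2010 and 2099 CPM with cGAMP alone, 1344, 1389 and 1427 CPM with 10 uM SB24011, and 1310, 1597 and 1663 CPM with 20 uM. All 6 libraries with SB24011 lay below the 3 without it. The change was -0.59 ± 0.08 at 10 uM (adjusted p = 2.56e-05) and -0.45 ± 0.08 at 20 uM (adjusted p = 0.000274). Pgam1 averaged 1008 ± 26.1 CPM with cGAMP, 616 ± 14.5 CPM with 10 uM and 646 ± 66.7 CPM with 20 uM, a change of -0.71 ± 0.08 (adjusted p = 1.59e-06) and -0.64 ± 0.08 (adjusted p = 3.76e-06). Slc16a1 averaged 309 ± 14.3 CPM with cGAMP, 183 ± 32.3 CPM with 10 uM and 187 ± 40.6 CPM with 20 uM (-0.76 ± 0.15, adjusted p = 0.000786, and -0.72 ± 0.15, adjusted p = 0.00105). Hk1 averaged 256 ± 21.6 CPM with cGAMP, 174 ± 12.5 CPM with 10 uM and 178 ± 11.4 CPM with 20 uM (-0.56 ± 0.07, adjusted p = 1.13e-05, and -0.53 ± 0.07, adjusted p = 1.77e-05). None of these calls was lost under any alternative tried. Slc16a3 averaged 168 ± 9.41 CPM with cGAMP, 77.5 ± 7.45 CPM with 10 uM and 91.0 ± 27.0 CPM with 20 uM. Its change was -1.12 ± 0.21 (adjusted p = 0.00065) and -0.88 ± 0.21 (adjusted p = 0.00326), the call at 20 uM being lost without replicate 1 of every group (0.0747).

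**Figure D2:**
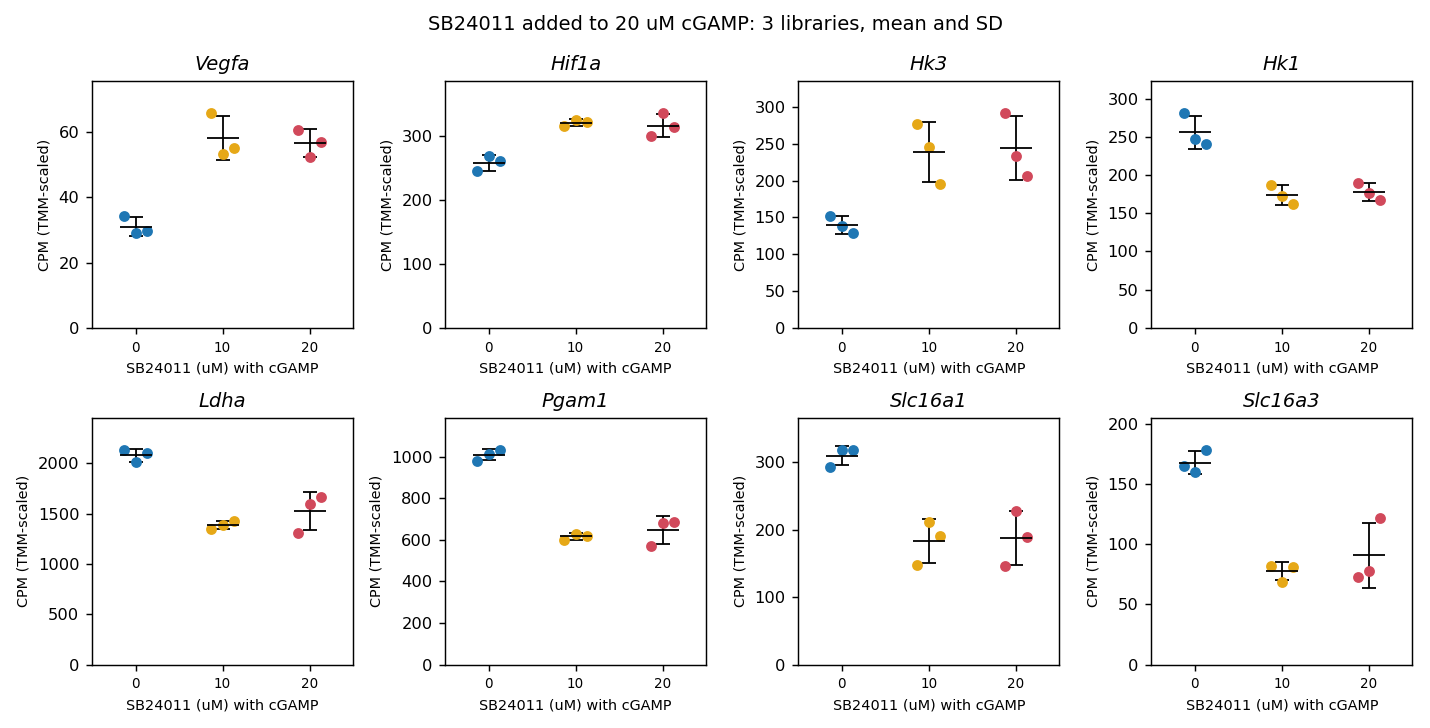
TMM-scaled CPM (vertical axes, each from 0) of 8 genes with 20 uM cGAMP and 0, 10 or 20 uM SB24011 (horizontal axes). Points are the 3 libraries of a group, the long line is their mean and the bars are 1 SD. In each gene both doses lie on the same side of cGAMP alone, for Vegfa at 58.1 ± 6.72 and 56.7 ± 4.17 CPM, above 31.0 ± 2.87 CPM.

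The calls of Pfkl, Tpi1, Hk2 and Pfkp at 20 uM held with the library sets as a block. In the unpaired fit each was lost when certain single libraries were left out. Pfkl (-0.41 ± 0.15, adjusted p = 0.031) missed when either of cGAMP replicates 1 and 3 was left out (0.0887 and 0.094), and likewise for replicates 1 and 2 with SB24011 (0.101 and 0.117). Tpi1 (-0.31 ± 0.11, adjusted p = 0.0318) missed without the same 4 libraries (0.0812, 0.103, 0.133 and 0.106). For Hk2 (-0.19 ± 0.06, adjusted p = 0.0233) this held of cGAMP replicates 1 (0.0711) and 3 (0.0766) and of replicate 3 with SB24011 (0.112). Pfkp (0.21 ± 0.07, adjusted p = 0.0194) missed without cGAMP replicate 2 (0.0852) or replicate 1 of the SB24011 group (0.0887). It also missed with limma on log2 FPKM and on the quantile-normalized table. Pkm and Vhl were also called lower, both within 0.18 on the log2 scale. Slc2a1 was not called (-0.08, 95% interval -0.29 to 0.13, adjusted p = 0.533). Egln1 (-0.24, adjusted p = 0.0489) and Ankrd37 (-1.21, 0.000326) were called lower as well when the library sets entered as a block.

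With 10 uM SB24011 on cGAMP, 15 of 31 genes fell and 4 rose against cGAMP alone, beside 19.1% and 19.9% of all genes tested and 39% in either direction. The median was -0.20, against 0.02 for all genes. The count that fell was 8 without replicate 1 and 9 without replicate 2 of every group. Beside the genes above, Pfkl averaged 121 ± 13 CPM with 10 uM SB24011 and 182 ± 16.4 CPM with cGAMP (-0.58 ± 0.15, adjusted p = 0.0046, but 0.0801 without replicate 1 of every group). Tpi1 averaged 582 ± 44.0 CPM with 10 uM SB24011 and 813 ± 53.3 CPM with cGAMP (-0.48 ± 0.11, adjusted p = 0.00248, but 0.0556 without that set). Egln1 averaged 17.2 ± 1.69 CPM with 10 uM SB24011 and 22.5 ± 0.497 CPM with cGAMP (-0.39 ± 0.12, adjusted p = 0.0167), and missed without replicate 1 or 2 of the SB24011 group (0.0551 and 0.0714). Ankrd37 averaged 1.05 ± 0.322 CPM with 10 uM SB24011 and 2.67 ± 0.764 CPM with cGAMP (-1.35 ± 0.49, adjusted p = 0.0413). Its call was lost without any of 5 single libraries, cGAMP replicate 1 (0.116) or 3 (0.104) and replicate 1 (0.0617), 2 (0.144) or 3 (0.0732) of the SB24011 group. Hk2, Gpi1, Pgk1, Eno1, Pkm and Vhl were called lower within 0.27 on the log2 scale, and Pfkp higher. In FPKM, however, Pfkp averaged 55.2 ± 10.6 with 10 uM SB24011 and 59.4 ± 8.89 with cGAMP. Slc2a1 missed at -0.23 (adjusted p = 0.076), and was called lower without cGAMP replicate 3 (-0.30, 0.0392) or replicate 1 of the SB24011 group (-0.35, 0.0108). Aldoa (-0.15, adjusted p = 0.00559), Bnip3 (-0.71, 0.0179) and P4ha1 (-0.18, 0.0249) were added to the genes lower in the fit with the block.

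The 2 doses were then compared with each other. None of 14650 genes was called by edgeR between 20 and 10 uM SB24011 on cGAMP (0%), and none by DESeq2. At an unadjusted p under 0.05, 1 of the 31 genes differed by edgeR and 1 by DESeq2. By edgeR that gene was Pgk1 (0.14, 95% interval 0.03 to 0.25, adjusted p = 1). Over all genes these counts were 404 by edgeR and 427 by DESeq2. Blocking on the library sets gave 8 of the 31 and 866 of all genes, and leaving out replicate 1 of the 20 uM group gave 6 of the 31 and 816 of all genes, with no gene called in either fit. The estimates leaned one way, with 27 of 31 above 0 and a median of 0.10, beside 7427 of 14650 and 0.00 for all genes. In Gpi1, Aldoa, Gapdh, Pgk1 and Pkm the 3 libraries with 20 uM lay above the 3 with 10 uM, 5 of 31 genes beside 3.62% of all genes. In the unpaired fit, the estimates were -0.04 (95% interval -0.25 to 0.18) for Vegfa and -0.02 (-0.12 to 0.08) for Hif1a. They were 0.14 (-0.04 to 0.31) for Ldha and 0.15 (-0.06 to 0.36) for Slc2a1. No member was called under any alternative tried, which does not show that the doses act alike. Without replicate 2 of every group 1 gene outside the 31 was called.

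The compound 7a was given on cGAMP at 20 uM, to ask how much of the effect the negative analog shares. Against cGAMP alone none of the 31 genes and none of all genes was called by edgeR (0%), while DESeq2 called 38 genes and the fit with the library sets as a block 8, none of them among the 31. At an unadjusted p under 0.05 by edgeR, 3 of the 31 were lower, namely Slc2a1 (-0.27, 95% interval -0.48 to -0.06, adjusted p = 0.493), Hk2 (-0.16, -0.29 to -0.02, adjusted p = 0.544) and Vhl (-0.22, -0.36 to -0.08, adjusted p = 0.445). DESeq2 also gave 3 of the 31, and over all genes the counts were 1208 by edgeR and 1236 by DESeq2. They were 11 of the 31 and 2099 of all genes with the library sets as a block. Without replicate 3 of the 7a group they were 8 of the 31 and 1678 of all genes, and 48 genes were called, none of them among the 31. Without replicate 3 of every group 4 genes were called, again none of the 31. Estimates were below 0 for 25 of the 31 genes, with a median of -0.10, beside 7572 of 14650 and -0.01 for all genes. Vegfa was at 34.5 ± 5.29 CPM with 7a and 31.0 ± 2.87 CPM without (0.15, -0.07 to 0.37), Hif1a at 251 ± 6.16 CPM with 7a and 258 ± 12.2 CPM without (-0.04, -0.15 to 0.06), and Ldha at 1944 ± 183 CPM with 7a and 2081 ± 63.8 CPM without (-0.10, -0.27 to 0.07). The intervals leave room for small changes with 7a.

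At the matched dose of 20 uM on cGAMP, the 1 pair of compounds that could be compared, SB24011 and 7a differed in 9 of 31 genes. With SB24011 3 were higher and 6 lower than with 7a, beside 19.7% and 16.7% of all genes tested and 36.4% in either direction. The median was -0.03 for the 31 genes and 0.01 for all genes. Vegfa had 60.7, 52.3 and 57.0 CPM with SB24011 and 40.3, 30.0 and 33.3 CPM with 7a (0.72 ± 0.10, 95% interval 0.50 to 0.93, adjusted p = 4.48e-05). Hif1a had 300.1, 336 and 314 CPM with SB24011 and 251, 257 and 245 CPM with 7a (0.33 ± 0.05, adjusted p = 5.79e-05). Hk3 had 292, 234 and 207 CPM with SB24011 and 148, 160 and 146 CPM with 7a (0.69 ± 0.13, adjusted p = 0.000474). In these 3 genes all libraries with SB24011 lay above all with 7a.

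Among the genes that were lower, Hk1 averaged 178 ± 11.4 CPM with SB24011 and 253.5 ± 16.7 CPM with 7a (-0.51 ± 0.07, adjusted p = 3.26e-05). Pgam1 had 569, 681 and 687 CPM with SB24011 and 823, 881 and 1019 CPM with 7a (-0.49 ± 0.08, adjusted p = 7.87e-05). Both were free of overlap and held under every alternative tried. Ldha had 1310, 1597 and 1663 CPM with SB24011 and 1886, 1797 and 2149 CPM with 7a (-0.35 ± 0.08, adjusted p = 0.00263, and 0.0524 with only the 2 groups in the fit). Slc16a1 averaged 187 ± 40.6 CPM with SB24011 and 277 ± 38.3 CPM with 7a (-0.56 ± 0.15, adjusted p = 0.00741, and 0.162 without replicate 3 of every group). Slc16a3 (-0.56 ± 0.21, adjusted p = 0.0488) and Pkm (-0.16 ± 0.06, adjusted p = 0.0358) were called by small margins. Without replicate 3 of the 7a group they were at -0.27 (0.303) and -0.09 (0.212), and without replicate 1 or 2 of the SB24011 group at -0.42 and -0.45 (0.182 and 0.16) and at -0.13 and -0.17 (0.128 and 0.0521). Slc2a1 was not called (0.19, 95% interval -0.02 to 0.40, adjusted p = 0.153). With the library sets as a block 5 genes were higher instead of 3, Pfkp (0.14, adjusted p = 0.0374) and Pfkfb3 (0.29, 0.0371) being added, and Tpi1 (-0.21, 0.00447) and Ankrd37 (-0.61, 0.0424) were also called lower.

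**Figure D3:**
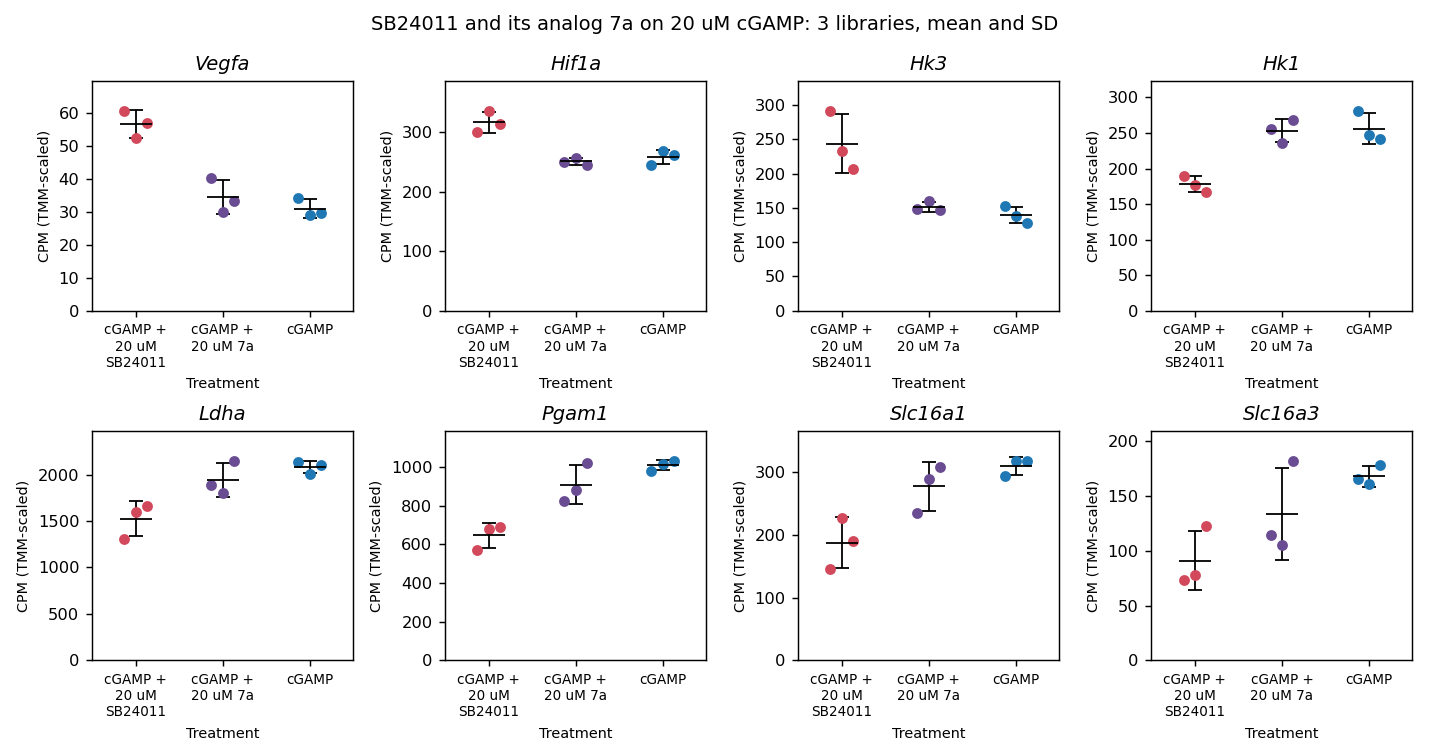
TMM-scaled CPM (vertical axes, each from 0) of 8 genes after SB24011 or 7a, each at 20 uM, was added to cGAMP, or nothing was (horizontal axes). Points are the 3 libraries of a group, the long line is their mean and the bars are 1 SD. The 7a libraries overlap those of cGAMP alone, as for Hif1a (251 ± 6.16 CPM with 7a and 258 ± 12.2 CPM with cGAMP alone), while SB24011 stands apart at 317 ± 18 CPM.

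The effect of cGAMP was also read in cells that had SB24011 in both arms, as cGAMP with 20 uM SB24011 against SB24011 alone. Of 31 genes 5 rose and 5 fell, beside 15% and 12.4% of all genes tested and 27.4% in either direction, with a median of -0.05, against -0.01 for all genes. The 5 that rose held under every alternative tried. P4ha1 had 367, 360 and 348 CPM with both compounds and 156, 135 and 157 CPM with SB24011 alone (1.26 ± 0.09, adjusted p = 8.39e-09). Pfkp averaged 415 ± 23.3 CPM with both and 281 ± 17.2 CPM with SB24011 alone (0.56 ± 0.07, adjusted p = 6.29e-06), and Hk3 244 ± 43.4 CPM with both and 139 ± 8.76 CPM with SB24011 alone (0.81 ± 0.13, adjusted p = 0.000132). Hk1 and Hk2 were each higher by 0.35 (SE 0.07 and 0.06, adjusted p = 0.00109 and 0.000542). These are the 5 genes that cGAMP raised most firmly against DMSO, a comparison that shares no library with this one.

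The 5 that fell were Pdk1 (-0.58 ± 0.14, adjusted p = 0.00646), Egln1 (-0.52 ± 0.12, adjusted p = 0.00327), Slc16a3 (-0.58 ± 0.21, adjusted p = 0.0492), Pfkfb3 (-0.39 ± 0.13, adjusted p = 0.036) and Pfkfb4 (-0.20 ± 0.07, adjusted p = 0.0401). Pdk1 had 42.0, 52.4 and 61.6 CPM with both compounds and 82.8, 70.3 and 80.4 CPM with SB24011 alone, without overlap. This count was not stable. Leaving out replicate 1 of the combined group gave 2 and leaving out its replicate 2 gave 3. It was 3 without SB24011 replicate 1, 2 without SB24011 replicate 3, and 0, 2 and 3 without replicate 1, 2 or 3 of every group. Slc16a3 missed without each of these 4 single libraries (0.2, 0.167, 0.132 and 0.151), and Pfkfb3 too (0.141, 0.0957, 0.0506 and 0.176). Pfkfb4 missed without replicate 1 or 2 of the combined group (0.146 and 0.0799) and without SB24011 replicate 2 or 3 (0.175 and 0.0797). Pdk1 and Egln1 missed without replicate 1 of every group (0.136 and 0.0972), and Egln1 without replicate 2 of every group (0.0896). With the library sets as a block 9 genes fell, with Slc16a1 (-0.29, adjusted p = 0.00888), Aldoc (-0.20, 0.0341), Bnip3 (-0.60, 0.0496) and Bnip3l (-0.29, 0.000913) added, and Pgk1 (0.13, 0.018) was called higher. Here too, scaling by library totals alone moved the median of all genes, to -0.18, and the share of higher among the calls from 54.7% to 24.2%. Not called in the main fit were Slc2a1 (-0.07, adjusted p = 0.675), Ldha (0.08, 0.543), Hif1a (0.02, 0.842) and Vegfa (0.08, 0.632). Slc2a1 was called lower with library totals alone and with the quantile-normalized table.

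Whether SB24011 acted differently with and without cGAMP was tested as an interaction, the log2 change against cGAMP less that against DMSO, both at 20 uM SB24011. Of all genes 0.369% were called, and none of the 31 genes, by edgeR. DESeq2 called 171 genes and the fit with the library sets as a block 321, again none of the 31. At an unadjusted p under 0.05 by edgeR the 1 gene was Vhl (-0.24, 95% interval -0.44 to -0.04, adjusted p = 0.422), and by DESeq2 there were 2. Over all genes the counts were 1312 and 1285. By edgeR, Vegfa was at 0.10 (-0.21 to 0.41, adjusted p = 0.923) and Hif1a at -0.03 (-0.18 to 0.11, adjusted p = 0.959). Ldha was at 0.15 (-0.10 to 0.39, adjusted p = 0.799) and Slc2a1 at -0.26 (-0.56 to 0.03, adjusted p = 0.629).

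**Figure D4:**
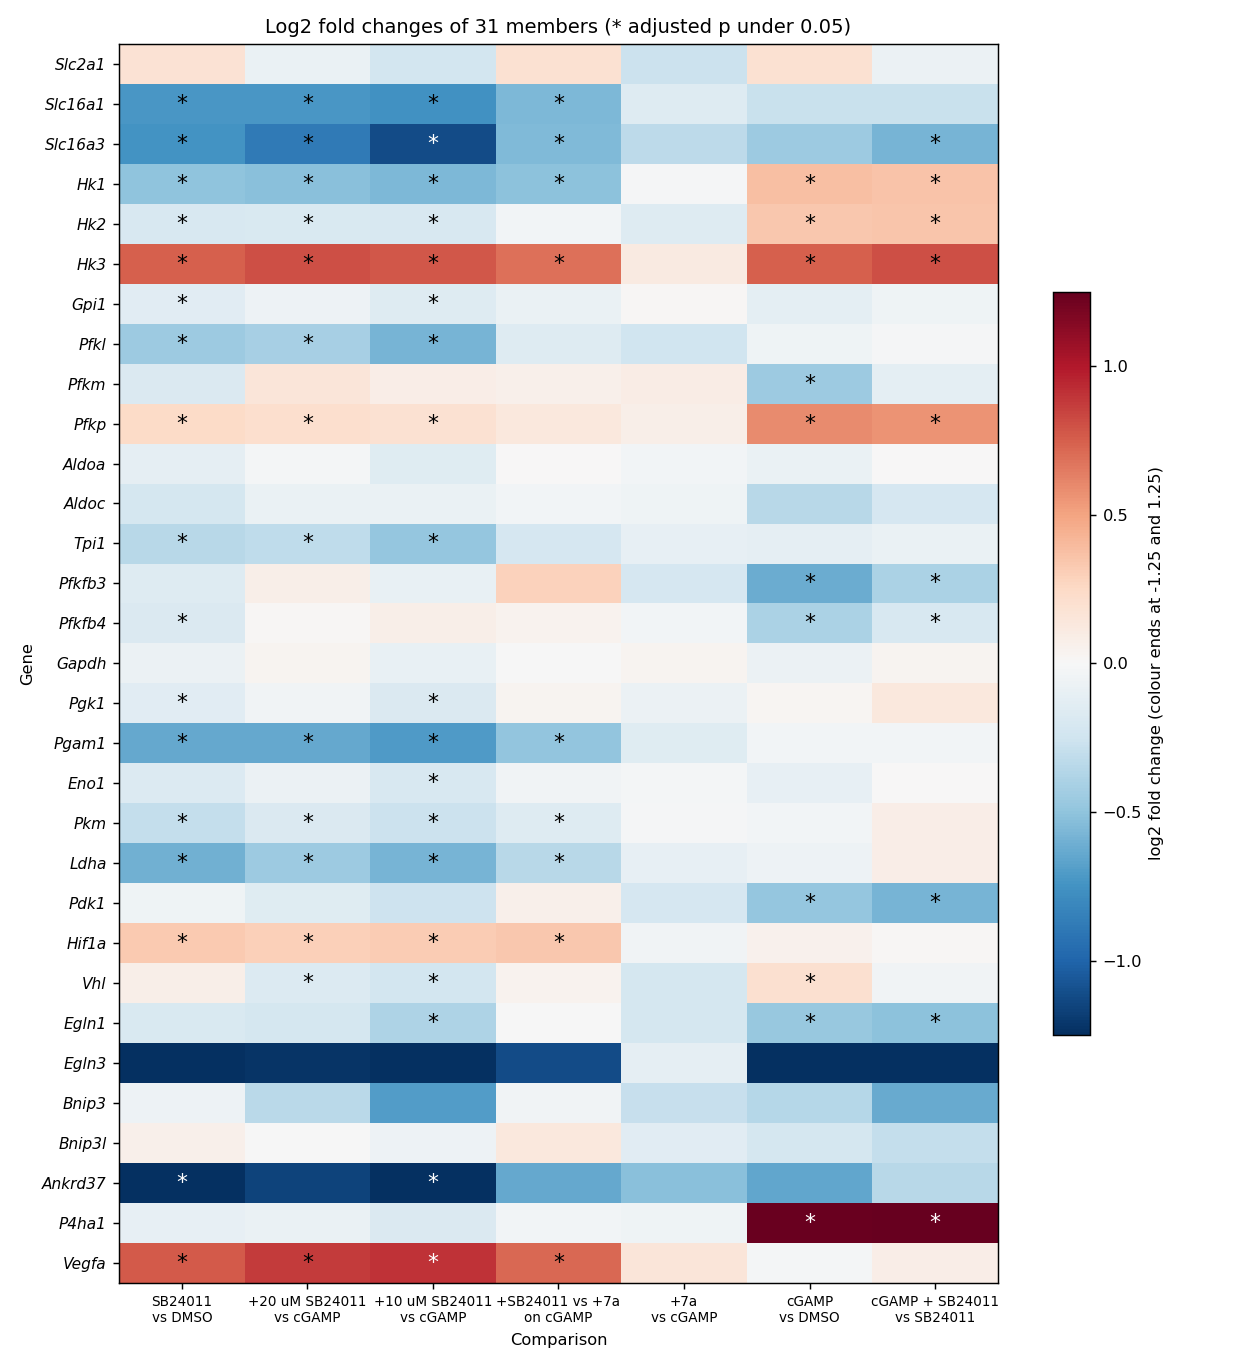
Log2 fold changes of the 31 tested genes (rows, ordered by role) in 7 comparisons (columns), with colour from blue (lower) to red (higher) and asterisks for an adjusted p under 0.05. Hk3 and Vegfa are red and Slc16a1, Hk1, Pgam1 and Ldha blue in the first 4 columns, which set SB24011 against a group without it, and P4ha1 is red in the 2 columns on the right, at 1.24 and 1.26. Egln3 has 0 to 43 reads a library and its colour is not reliable.

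Replicates with the same number varied together across the 6 groups, and a block of these genes did so more than most. In 7 of the 31 genes, Gpi1, Pfkl, Aldoa, Aldoc, Bnip3, Bnip3l and Ankrd37, replicate 2 was the lowest library in all 6 groups, beside 2.05% of all genes tested (301 of 14650). Replicate 1 was lowest in all groups for Slc16a1 and Pgam1 (5.48% of all genes) and replicate 3 for Hk3 (1.74%). The level of replicate 2 relative to the mean of replicates 1 and 3 had a median over groups of 0.477 for Ankrd37, 0.577 for Bnip3, 0.748 for Aldoc and 0.815 for Bnip3l. It was 0.833 for Pfkl, 0.928 for Aldoa, 0.951 for Gpi1 and 1.04 for Hif1a. Bnip3 had 81.5, 32.7 and 67.5 CPM with SB24011, 56.3, 36.6 and 54.9 CPM with cGAMP, and 79.6, 43.0 and 67.3 CPM with DMSO. Replicate 2 of each of these 3 groups lay below replicates 1 and 3 of all 3. The labels do not say what the library numbers stand for, and the members of this block were picked after their values were seen, so no test is given.

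**Figure D5:**
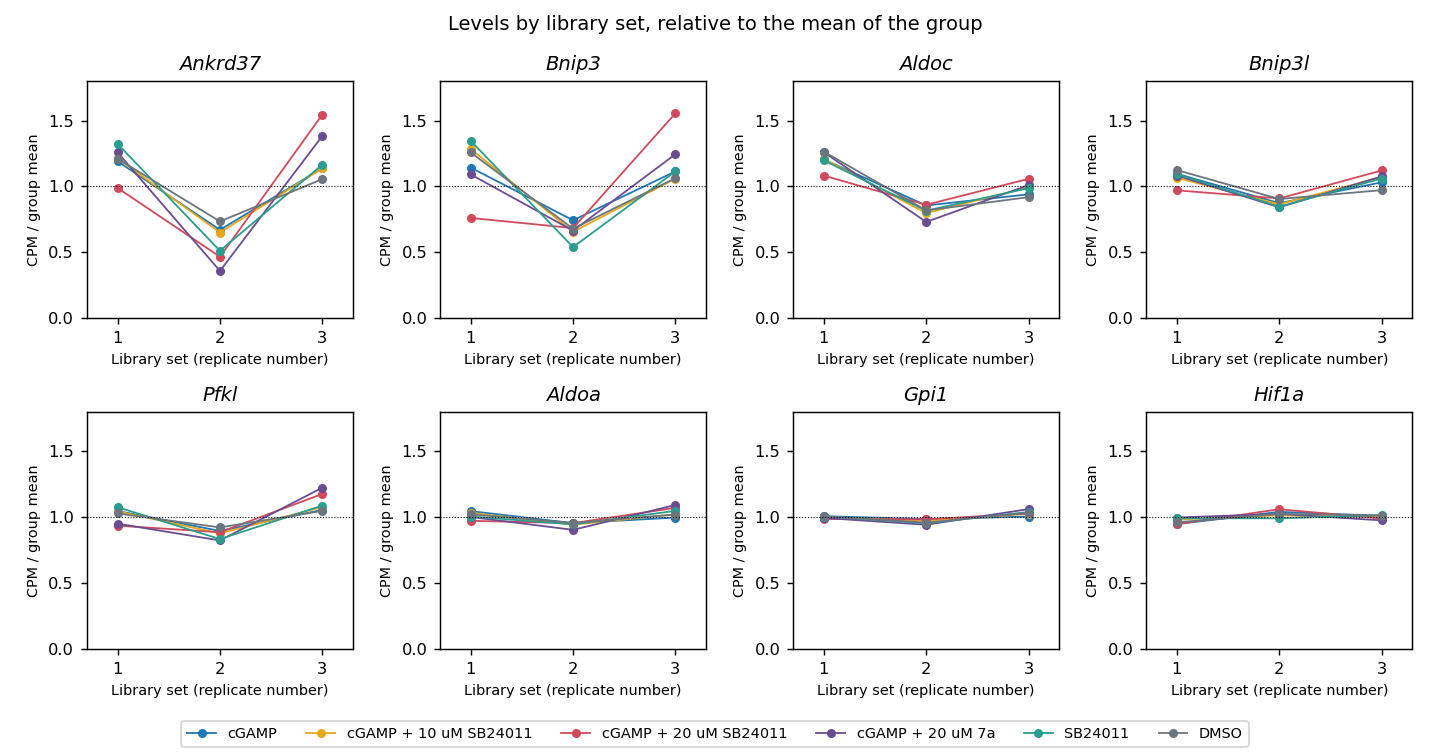
Level of 8 genes in each library divided by the mean of its group (vertical axes), against the library set, which is the replicate number (horizontal axes). Lines join the 3 libraries of a treatment, one colour each, and the dotted line marks the group mean. Replicate 2 is lowest in every group for the first 7 genes, with a median ratio to the other 2 of 0.477 for Ankrd37, and not for Hif1a.

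Further genes of the 2 programmes were taken from fixed lists. Of 12 other tested genes of glycolysis and its side branches, 4 fell and 1 rose with SB24011 alone, 5 called in all, beside 44.6% of all genes tested. Tigar, which breaks down fructose 2,6-bisphosphate, averaged 34.4 ± 0.919 CPM with SB24011 and 53.6 ± 2.50 CPM with DMSO (-0.64 ± 0.10, adjusted p = 7.27e-05). Gpd2, the mitochondrial glycerol phosphate dehydrogenase, was at -0.57 ± 0.05 (adjusted p = 1.61e-07). Slc2a3, the high-affinity transporter GLUT3, was the 1 that rose (0.46 ± 0.10, adjusted p = 0.000856). On cGAMP with 20 uM SB24011 the same 3 genes were at -0.51, -0.34 and 0.48 (adjusted p = 0.00077, 6.15e-05 and 0.000777), and 2 rose and 3 fell in all, beside 42.3% of all genes called. With cGAMP against DMSO 2 rose and 6 fell, beside 15.6% and 19.8% of all genes. Slc2a6, a transporter gene of inflamed macrophages, had 94.5 ± 21.9 CPM with cGAMP and 43.4 ± 6.16 CPM with DMSO (1.12 ± 0.29, adjusted p = 0.00704). Among the genes that fell were Pfkfb2 (-0.45 ± 0.07, adjusted p = 4.38e-05) and Tigar (-0.37 ± 0.10, adjusted p = 0.00856).

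Of 27 other tested hypoxia-response genes, 7 rose and 5 fell with SB24011 alone, with a median of -0.09. These 12 calls among 27 stand beside 44.6% of all genes called, a share near the background. Ndrg1, a gene named for its regulation by N-myc, averaged 330 ± 28.5 CPM with SB24011 and 86.6 ± 8.37 CPM with DMSO (1.93 ± 0.13, adjusted p = 1.34e-08). Ddit4, an inhibitor of mTORC1 signalling, averaged 20.9 ± 1.86 CPM with SB24011 and 7.04 ± 1.30 CPM with DMSO (1.57 ± 0.17, adjusted p = 1.71e-06), and Stc2, a secreted glycoprotein gene, 38.1 ± 0.940 CPM with SB24011 and 18.1 ± 0.231 CPM with DMSO (1.08 ± 0.10, adjusted p = 2.38e-07). Arnt2, a relative of the HIF partner ARNT, was also called higher but lay under 1 CPM, at 0.263 ± 0.124 CPM with SB24011 and 0.0392 ± 0.0448 CPM with DMSO. Ak4, a mitochondrial adenylate kinase gene and HIF target, fell to 45.5 ± 8.83 CPM, against 101 ± 9.98 CPM in DMSO (-1.15 ± 0.25, adjusted p = 0.00183). On cGAMP with 20 uM SB24011, Ndrg1, Ddit4 and Ak4 were at 2.02, 1.59 and -1.45. Adm, of the same list, was also called lower there, at -1.70 ± 0.62 (adjusted p = 0.0387). Against 7a at the same dose Ndrg1, Ddit4 and Stc2 were at 2.00, 1.30 and 1.26 (adjusted p = 1.98e-08, 2.03e-05 and 9.47e-08). With cGAMP against DMSO 5 of the 27 rose and 8 fell, beside 15.6% and 19.8% of all genes. Adm was at 2.21 ± 0.63 (adjusted p = 0.0134), and Ndrg1 fell to 39.9 ± 8.14 CPM, against 86.6 ± 8.37 CPM in DMSO (-1.12 ± 0.13, adjusted p = 5.68e-06). Angptl4 (-2.07 ± 0.38, adjusted p = 0.000424) and Car12 (-1.03 ± 0.22, adjusted p = 0.00181) fell too.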

How the data were processed

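mRNA libraries of RAW264.7 cells were made with a TruSeq stranded mRNA kit, per the labels' protocols. Trimmomatic 0.38, HISAT2 2.1.0, Bowtie2 2.3.4.1, StringTie 2.1.3b and the build GRCm38 (mm10) are named, per the submitters' processing notes. How reads were counted, with which strand setting, and what became of multi-mapped reads is not given in the sources used here. Raw counts and FPKM values per gene and library stand side by side in one table, per the file headers. The authors also deposited log2(FPKM + 1) values after quantile normalization. The 18 TPM columns were not used here.

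Counts were tested with edgeR 4.0.16 in R 4.3.3. Genes passed filterByExpr, libraries were scaled by TMM, and 1 robust quasi-likelihood model was fitted to the 18 libraries of 6 groups. The Benjamini-Hochberg method adjusted p-values over 14650 genes, with calls at values under 0.05. Tests are 2-sided. Log2 fold changes were computed with a prior count of 0.125. SE and 95% intervals derive from the F statistic, and cover the spread between libraries. Alternatives were other scalings, other filters, DESeq2 1.42.0, limma 3.58.1 on log2 FPKM and on the quantile-normalized table, only the groups compared, each replicate left out, and the library sets as a block. The labels number libraries 1 to 6, 21 to 26 and 31 to 36, which here are replicates 1, 2 and 3. Deviations of same-numbered libraries from their group means correlated above 0.1 in every pair (r from 0.11 to 0.528), and 18 of 18 libraries correlated best with one of their own set, so the numbers pair the libraries. The main fit leaves this pairing out, so its SE and intervals include the spread between sets. With the sets as a block, genes called went from 11 to 17 for cGAMP and from 17 to 20 for SB24011 alone. On cGAMP they went from 14 to 16 at 20 uM SB24011 and from 19 to 22 at 10 uM. They went from 9 to 13 against 7a, and from 10 to 15 for cGAMP with SB24011 against SB24011.

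The members, lists and motifs were chosen with earlier results of these data known. Fold changes and tests are given, in each comparison, for the up to 12 called members with the largest absolute change and for Hif1a, Slc2a1, Ldha and Vegfa. Other members are given by level, count or range. Of the other lists, up to 4 called genes averaging 1 CPM or more were eligible. Members outside this rule were named after their values were seen. Gene coordinates and promoter windows come from RefSeq (GRCm38.p6). Figures were drawn with matplotlib 3.10.9.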

Additional observations from a re-analysis of the deposited data

How the results depend on the processing

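For the genes named with a test, 1559 of 1734 values under an alternative kept their direction and their side of the threshold, 134 lost their call and 9 gained one. The other 32 changed sign. None of these had been called in the main analysis, though some were called under the alternative. With libraries scaled by their totals alone, the genes lower numbered 12 for cGAMP against DMSO (5 in the main analysis), 7 for SB24011 alone (13), 6 for 20 uM SB24011 on cGAMP (10) and 11 for cGAMP with SB24011 against SB24011 (5). With limma on log2 FPKM (+ 1 or + 0.1) they numbered 12 for cGAMP and 9 for the last comparison. With the quantile-normalized table they were 8 for cGAMP, 8 for SB24011 alone and 12 for the last comparison. With only the groups compared they were 3 for SB24011 against 7a (6) and 3 for the last comparison, which also had 3 with no filter on low counts. With the library sets as a block, 11 genes were lower for cGAMP, 9 for the last comparison and 5 higher for SB24011 against 7a (3). The block ended no call. Leaving out a replicate or a library set gave 2 to 5 genes lower for cGAMP, 5 to 12 for SB24011 alone, 4 to 10 for 20 uM and 8 to 15 for 10 uM SB24011 on cGAMP, and 0 to 5 for the last comparison.

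Signs that turned belong to differences near 0 in the main analysis. For cGAMP with SB24011 against SB24011, however, Hif1a was called lower with totals and with the quantile-normalized table, so its direction there depends on the scaling. For cGAMP against DMSO, Hif1a was at -0.077 with library totals, -0.077 and -0.079 with limma on FPKM and -0.082 with the quantile-normalized table. Vegfa was at 0.0020 with DESeq2's size factors in edgeR, 0.0018 with DESeq2, 0.032 with only the groups compared and -0.101 to 0.024 without a replicate (0.021 and 0.00055 without replicate 2 or 3 of every group). For cGAMP with SB24011 against SB24011, Ldha was at -0.090 with totals, -0.089 and -0.090 with FPKM and -0.095 with the quantile-normalized table. Hif1a was at -0.15 with totals (adjusted p = 0.0265), -0.14 with FPKM, -0.20 with the quantile-normalized table (adjusted p = 0.00665) and -0.032 to 0.055 without a replicate (-0.026 without replicate 2 of the combined group). Vegfa there was at -0.090 with totals, -0.075 and -0.080 with FPKM and -0.0018 with the quantile-normalized table. Between the doses, without a replicate, Hif1a was at -0.065 to 0.016 (0.0039 without replicate 1 of every group) and Vegfa at -0.093 to 0.063 (0.012 without that set). In the interaction, Ldha was at -0.0088 with the quantile-normalized table and Hif1a at -0.079 to 0.0025 without a replicate. The share of higher calls among all genes for SB24011 alone was 45.7%, and 57.4% with totals. For the interaction it was 66.7%, and 30.3% with totals. The cause of these differences was not tested. Ankrd37 had 24 to 346 reads a library and Egln3 0 to 43, which limits what can be read from them.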

Other observations

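Genes of pyruvate transport into mitochondria and of pyruvate dehydrogenase, with its kinases and phosphatases, were called in both directions with SB24011. Of 11 tested genes of this list, 4 rose and 2 fell with SB24011 alone, beside 20.4% and 24.3% of all genes and 44.6% in either direction. Dld, a shared subunit of the 2-oxoacid dehydrogenases, averaged 325 ± 7.82 CPM with SB24011 and 209 ± 10.1 CPM with DMSO (SD, n = 3 each), a log2 fold change of 0.63 ± 0.05 (edgeR adjusted p = 1.71e-08). Pdhb, a subunit of pyruvate dehydrogenase, averaged 170 ± 7.29 CPM with SB24011 and 129 ± 2.69 CPM with DMSO (0.40 ± 0.05, adjusted p = 1.25e-05). Pdp2, a phosphatase that reactivates this enzyme, fell (-0.60 ± 0.04, adjusted p = 1.33e-08). Pdk2, a kinase of the same enzyme, had the largest change but few reads, at 2.65 ± 0.701 CPM with SB24011 and 1.30 ± 0.413 CPM with DMSO (1.02 ± 0.28, adjusted p = 0.00603). On cGAMP with 20 uM SB24011, 5 rose and 2 fell, beside 21.7% and 20.6% of all genes. There Dld was at 0.57, Pdhb at 0.55 and Pdp2 at -0.50 (adjusted p = 8.57e-08, 4.95e-07 and 1.79e-07), and Pdk2 at 1.02 (adjusted p = 0.0105). Against 7a at the same dose, Dld, Pdhb and Pdp2 were at 0.53, 0.49 and -0.41 (adjusted p = 2.61e-07, 2.36e-06 and 2.07e-06). With cGAMP against DMSO, 1 of the 11 rose and 3 fell, beside 15.6% and 19.8% of all genes, and the 1 that rose was Pdk3, a pyruvate dehydrogenase kinase (0.62 ± 0.08, adjusted p = 1.26e-05).

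Of 8 tested genes of the pentose phosphate pathway, which branches off after hexokinase, 5 fell and none rose with SB24011 alone, by edgeR, beside 24.3% and 20.4% of all genes. Rpia, ribose phosphate isomerase, averaged 42.8 ± 2.01 CPM with SB24011 and 60.1 ± 2.15 CPM with DMSO (-0.49 ± 0.05, adjusted p = 1.23e-06), and Tkt, transketolase, 537 ± 14.2 CPM with SB24011 and 646 ± 19.1 CPM with DMSO (-0.27 ± 0.06, adjusted p = 0.00112). On cGAMP with 20 uM SB24011, 3 fell and 2 rose, beside 20.6% and 21.7% of all genes, with Rpia at -0.54 (adjusted p = 5.71e-07). With cGAMP against DMSO 1 rose and 1 fell, beside 15.6% and 19.8% of all genes. The riser was Rpe, ribulose phosphate epimerase (0.53 ± 0.06, adjusted p = 3.06e-06).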
